A study of Mus musculus with 34 samples.

Results

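The genes described here are the 10 that carry out or control antigen presentation by classical MHC class I in the mouse: H2-K1, H2-D1, B2m, Tap1, Tap2, Tapbp, Psmb8, Psmb9, Psmb10 and Nlrc5. They were taken by gene symbol from the deposited RNA table, and all 10 were found, each on a single row, among 23812 gene rows. The study mapped active enhancers in activated B cells and used resting B cells as controls. All cells came from spleens of C56BL/6J mice (strain name as the labels spell it) aged 6 to 8 weeks and belonged to the CD43- fraction, in which magnetic beads have removed cells that carry CD43. Activated cells (2 RNA samples) were cultured for 3 days with lipopolysaccharide (LPS), an outer membrane component of bacteria, at 10 µg per ml. Resting cells (2 RNA samples) are named as such by titles, source names and the series design, while their treatment field gives that same LPS culture, which leaves the handling of these cells unsettled. The peak lists and the Hi-C list used here are from activated cells only. The labels do not say whether replicates came from separate mice or cultures, and the spread behind every p-value may therefore be technical only.

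Class I molecules show peptides from inside the cell to CD8 T cells. The proteasome cuts proteins into peptides, the TAP transporter carries these into the endoplasmic reticulum, and a loading complex places them on a heavy chain bound to β2-microglobulin. Interferons are the best known inducers: they add 3 immunosubunits to the proteasome and act on class I promoters through interferon response elements, NF-kB sites and the SXY module. The SXY module holds an X2 box, which CREB and ATF proteins bind, and a Y box, which NF-Y binds, and NLRC5 is recruited to it.

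The promoters of the heavy chains and β2-microglobulin are shown because they share an arrangement of these elements, with 2 further promoters for contrast. Windows run from 250 bases before to 50 bases after the RefSeq start (GRCm38.p6, written 5′ to 3′ on the gene's strand), and 8 of the 10 genes had an entry (all but Tap2 and Nlrc5). Capitals mark matches on either strand to the NF-kB consensus, to the core of the interferon response element (AANNGAAA), to the X2 core (TGACG) and to the Y core (ATTGG); an opposite-strand match of the last pair reads CGTCA or CCAAT. The H2-K1 window lies at chr17:34000298-34000597 (minus strand), H2-D1 at chr17:35262844-35263143 (plus), B2m at chr2:122147437-122147736 (plus), Tap1 at chr17:34187306-34187605 (plus) and Psmb10 at chr8:105938343-105938642 (minus).
H2-K1: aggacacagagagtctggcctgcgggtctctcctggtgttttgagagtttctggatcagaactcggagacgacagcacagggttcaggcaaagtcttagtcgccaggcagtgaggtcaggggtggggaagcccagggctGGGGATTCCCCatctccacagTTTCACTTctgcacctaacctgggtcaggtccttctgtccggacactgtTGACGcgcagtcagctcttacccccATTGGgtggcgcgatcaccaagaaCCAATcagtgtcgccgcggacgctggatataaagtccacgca
H2-D1: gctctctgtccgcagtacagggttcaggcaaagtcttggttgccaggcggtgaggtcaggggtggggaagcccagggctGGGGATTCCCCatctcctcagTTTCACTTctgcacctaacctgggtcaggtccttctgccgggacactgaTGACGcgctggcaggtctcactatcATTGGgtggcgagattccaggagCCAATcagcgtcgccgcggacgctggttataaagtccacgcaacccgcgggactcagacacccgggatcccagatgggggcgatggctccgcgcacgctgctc
B2m: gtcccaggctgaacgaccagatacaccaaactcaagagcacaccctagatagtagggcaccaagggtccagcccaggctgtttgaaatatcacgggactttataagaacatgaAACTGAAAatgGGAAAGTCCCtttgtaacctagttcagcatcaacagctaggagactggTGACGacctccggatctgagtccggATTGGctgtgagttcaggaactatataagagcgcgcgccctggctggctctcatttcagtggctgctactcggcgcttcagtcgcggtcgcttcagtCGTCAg
Tap1: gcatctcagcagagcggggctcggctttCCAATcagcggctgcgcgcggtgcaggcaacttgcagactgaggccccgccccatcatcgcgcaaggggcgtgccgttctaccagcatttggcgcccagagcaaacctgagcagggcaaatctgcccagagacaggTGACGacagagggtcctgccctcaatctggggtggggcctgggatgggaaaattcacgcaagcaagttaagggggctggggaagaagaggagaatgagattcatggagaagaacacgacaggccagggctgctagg
Psmb10: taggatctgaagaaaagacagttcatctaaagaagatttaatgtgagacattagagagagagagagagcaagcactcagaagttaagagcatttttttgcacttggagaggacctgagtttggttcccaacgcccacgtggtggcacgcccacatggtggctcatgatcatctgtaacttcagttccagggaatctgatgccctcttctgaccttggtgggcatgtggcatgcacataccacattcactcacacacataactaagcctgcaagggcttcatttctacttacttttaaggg

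In H2-K1, H2-D1 and B2m the X2 core was followed on the gene's strand by the Y core with exactly 20 bases between them. The pair with a gap of 15 to 25 bases, on either strand, was present in 0.463% of 27025 promoter windows, and among the 8 windows it was in these 3. The same 3 held an NF-kB consensus (8.18% of all windows) and an interferon response core (24.2%). The X2 core alone was in 21.0% of windows and the Y core alone in 37.9%. No 2 kinds of match share a base in the windows printed. The H2-K1 and H2-D1 windows were 88.3% identical over 239 aligned bases, so their shared matches are not independent, while H2-K1 and B2m were 57.8% identical over 249. The Tap1 and Psmb9 windows share 275 bases because the genes start 226 bases apart on opposite strands, and this window held an X2 and a Y core outside that arrangement. The Psmb8 and Psmb10 windows held none of the 4 motifs. Each window follows the RefSeq start, and whether these cells used that start was not tested. The Psmb10 window had 3 CpG dinucleotides, against 11 to 19 in the other 7, and a GC content of 45.7%, against 52.3% to 62.3%. A match is a description of letters and not evidence of binding.

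RNA levels are given as FPKM, fragments per length of transcript and per mapped fragments, a unit that the deposited table does not name and that was taken from its values. Of all rows, 10863 had at least 1 FPKM in at least 2 samples and were tested with limma on log2(FPKM + 1), with Benjamini-Hochberg adjusted p under 0.05 as a call; all 10 members passed this filter. The values summed to 244602 to 287884 per sample, and read depth is unknown. The 6 B cell markers summed to 3219 and 3590 FPKM in resting and to 2005 and 1426 in activated samples. Markers of other cells moved with the comparison: 9 macrophage genes summed to 547 and 947 FPKM in resting and 1.55 and 7.14 in activated samples, with C1qa and C1qb at 0 in both activated samples. Erythroid genes summed to 1029 and 8633 in resting samples, and 12.1 and 5.31 in activated ones. Their part in the results below was not tested. In bulk RNA, fewer cells of a type and less RNA per cell cannot be told apart.

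Of the 10 members, Psmb10 alone passed the test, and it was lower in activated cells; no member was called higher. Over all tested genes 28.2% were called higher and 26.2% lower, so the members held fewer calls in total than the background share of 54.4%. Their median log2 difference, activated minus resting, was 0.28, against 0.03 over all tested genes. In 5 members (Tap1, Tap2, Tapbp, Psmb8 and Psmb9) both activated samples lay above both resting samples, and in H2-D1 and Psmb10 both lay below. Such separation occurred upwards in 41.5% and downwards in 39.1% of all tested genes, 80.6% in all, against 7 of the 10 members.

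The heavy chains present the peptide, and H2-K1 had 836 and 884 FPKM in resting samples and 873 and 543 in activated samples. The groups overlapped, and the spread between the activated samples exceeded the difference of the means. The log2 difference was -0.32 ± 0.305 (SE, n = 2 per group; limma adjusted p = 0.402), with a 95% interval of -1.05 to 0.41. It was -0.66 without activated replicate 1 and 0.0225 without activated replicate 2. H2-D1 had 554 and 565 FPKM in resting and 508 and 342 in activated samples. Here the groups did not overlap, yet the log2 difference of -0.42 ± 0.276 (SE, n = 2 per group) did not pass the test (limma adjusted p = 0.231). It was -0.71 without activated replicate 1, -0.14 without activated replicate 2 and -0.69 under quantile normalization. Among tested genes H2-K1 ranked 20th by mean level in resting and 28th in activated cells, and H2-D1 37th and 56th.

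B2m, the light chain shared by class I molecules, was the most abundant member, with 1368 and 1763 FPKM in resting and 2296 and 1554 in activated samples. The groups overlapped, and the log2 difference was 0.28 ± 0.320 (SE, n = 2 per group; limma adjusted p = 0.481), with an interval of -0.48 to 1.05. Single libraries set this estimate: it was 0.00034 without activated replicate 1, 0.56 without activated replicate 2, 0.099 without resting replicate 1 and 0.46 without resting replicate 2. Under quantile normalization it was 0.76 (limma adjusted p = 0.0746). B2m ranked 9th of the tested genes in resting cells and 4th in activated cells. The ratio of B2m to the sum of H2-K1 and H2-D1 was 0.985 and 1.22 in resting and 1.66 and 1.76 in activated samples. Its exact two-sided permutation p was 0.333, the smallest that 2 against 2 samples allow. The measure was chosen after its values were seen, so this p-value is not a test of it. The ratio is free of the common scaling of a sample, and both activated values were above both resting values.

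**Figure D1:**
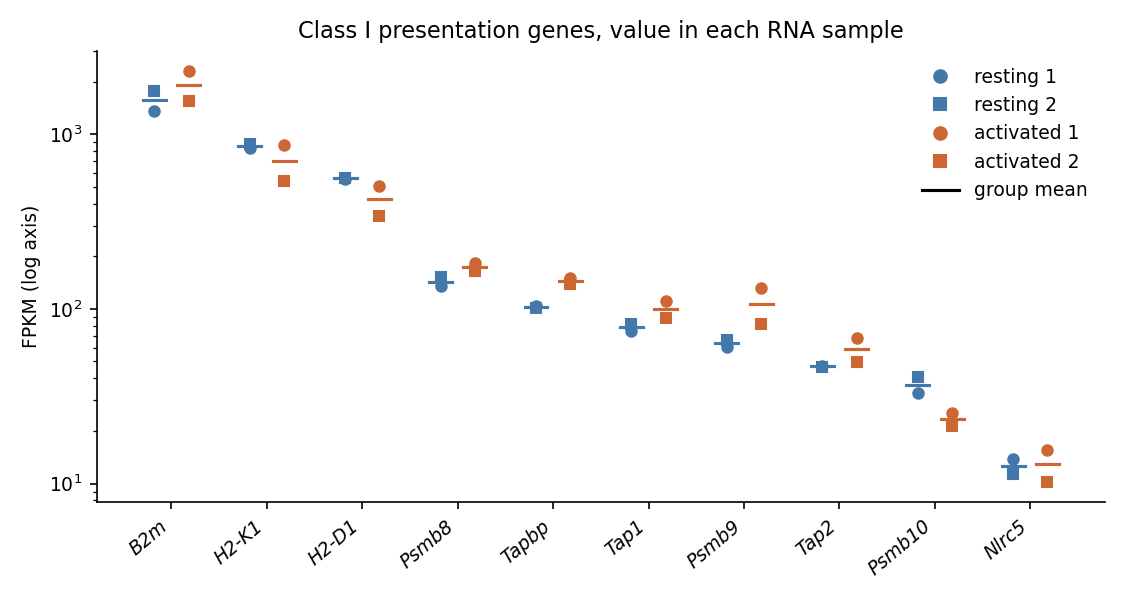
FPKM (log axis) of each gene in the 4 RNA samples, ordered by resting mean, with resting samples in blue, activated samples in orange and bars at group means. B2m, H2-K1 and H2-D1 stand above 300 FPKM in every sample, and Psmb10 is the gene with both activated samples lower by a called difference.

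Tap1 and Tap2 form the peptide transporter. Tap1 had 74.7 and 82.0 FPKM in resting and 111 and 89.3 in activated samples, a log2 difference of 0.34 ± 0.204 (SE, n = 2 per group; limma adjusted p = 0.196). Tap2 had 47.4 and 46.6 FPKM in resting and 68.1 and 49.98 in activated samples, and its log2 difference of 0.31 was not called either (limma adjusted p = 0.246). Without activated replicate 1 the difference was 0.19 for Tap1 and 0.087 for Tap2, and without activated replicate 2 that of Tap2 was 0.53. Under quantile normalization they were 0.11 and 0.035. Tapbp encodes tapasin, which bridges the transporter and the heavy chain. It had 104 and 102 FPKM in resting and 151 and 138 in activated samples. This difference had the smallest SE of those above 0, 0.48 ± 0.195 (SE, n = 2 per group) with an interval of 0.02 to 0.95, but the adjusted value missed the threshold (limma adjusted p = 0.0737). Under quantile normalization it was 0.29.

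The 3 immunosubunits are given in turn; differences between them were not tested. Psmb8 (β5i) had 135 and 152 FPKM in resting and 183 and 165 in activated samples, with a log2 difference of 0.28 (limma adjusted p = 0.295), or 0.15 under quantile normalization. Psmb9 (β1i) had 60.7 and 66.8 FPKM in resting and 131 and 81.9 in activated samples. Its log2 difference of 0.69 ± 0.260 (SE, n = 2 per group) was the largest upward estimate among the members and missed the threshold (limma adjusted p = 0.0594). Activated replicate 1 alone carried much of this estimate: it was 0.36 without that sample and 1.03 without replicate 2, where Psmb9 was called (limma adjusted p = 0.0109).

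Psmb10 (β2i) had 33.0 and 40.8 FPKM in resting and 25.2 and 21.4 in activated samples. Both activated values lay below both resting values, and the fall of 1.56-fold, log2 -0.64 ± 0.184 (SE, n = 2 per group), was called (limma adjusted p = 0.0249). This call rests on few samples: it was lost without activated replicate 2 (limma adjusted p = 0.0829), without resting replicate 1 (limma adjusted p = 0.0545) and without resting replicate 2 (limma adjusted p = 0.177), the resting sample with the higher erythroid sum. It was also just lost with no filter on low values (limma adjusted p = 0.0513). Psmb10 ranked 1358th of the tested genes in resting and 2720th in activated cells.

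Nlrc5, the class I transactivator, was the lowest member, with 13.8 and 11.4 FPKM in resting and 15.6 and 10.3 in activated samples. The groups overlapped, and the log2 difference was 0.02 ± 0.218 (SE, n = 2 per group; limma adjusted p = 0.956), with an interval of -0.51 to 0.54. Its sign turned with the setting, from -0.26 without activated replicate 1 to 0.29 without activated replicate 2. The 3 tested genes whose centred log2 values over the 4 samples lay nearest to Nlrc5 were Dhx57 (distance 0.078), Sh3bp5 (0.0838) and Bcl2 (0.0844). Nearest to B2m were Serpini1 (0.0361) and the ribosomal protein genes Rpl13a (0.0728) and Rpl38 (0.0979). With 4 points such likeness is a description.

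The activated replicates differed for the whole set. All 10 members were higher in activated replicate 1 than in replicate 2, by a median log2 ratio of 0.498, while over all tested genes this median was -0.0461. The resting replicates differed less, the members' median of replicate 1 over replicate 2 being -0.107 on the log2 scale.

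Most other proteasome genes listed here, which include no 19S subunit, were called higher (28.2% of all tested genes were). All 3 constitutive catalytic subunits, which the immunosubunits replace, rose: Psmb5 (β5) by 1.23, Psmb6 (β1) by 0.76 and Psmb7 (β2) by 1.27 in log2 units (limma adjusted p = 0.00302, 0.0169 and 0.00414). All 11 other 20S core subunits rose as well, with a median of 1.02. Of 9 activators and assembly factors 7 rose, while Psme1 and Psmg4 were not called. Psme2, a subunit of the interferon-inducible PA28 activator, was 10.9 and 13.2 FPKM in resting and 21.8 and 18.3 in activated samples, a rise of 0.69 (limma adjusted p = 0.0137), while its partner Psme1 differed by 0.21 (limma adjusted p = 0.416).

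Per sample, the ratio of Psmb8 to Psmb5 was 5.15 and 4.57 in resting and 2.89 and 2.10 in activated cells, a 1.97-fold lower geometric mean. Psmb10 to Psmb7 was 1.17 and 1.08 in resting and 0.364 and 0.231 in activated cells, 3.89-fold lower. Psmb9 to Psmb6 was 1.78 and 1.69 in resting and 2.34 and 1.16 in activated cells, which overlap; its direction turned on activated replicate 2, without which the log2 difference of -0.0708 became 0.434. For Psmb8 to Psmb5 and Psmb10 to Psmb7 the groups did not overlap (exact two-sided permutation p = 0.333 each, the smallest that 2 against 2 samples allow), and for Psmb9 to Psmb6 the exact permutation p was 1. These ratios do not depend on a sample's scaling.

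**Figure D2:**
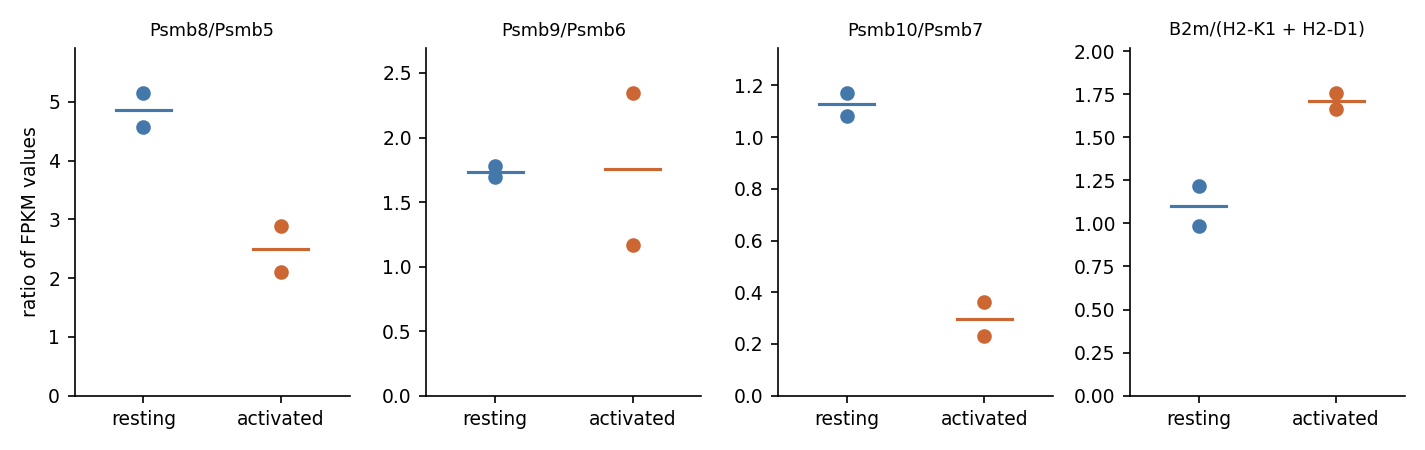
Ratio of FPKM values in each RNA sample for the 3 immunosubunits over their constitutive counterparts and for B2m over the summed heavy chains, each on its own axis from 0, with bars at group means. Psmb8/Psmb5 and Psmb10/Psmb7 are lower in both activated samples (2.10 to 2.89 and 0.231 to 0.364), Psmb9/Psmb6 overlaps, and B2m over heavy chains is higher in both.

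Of 12 other genes of peptide loading and trimming, 8 were called higher (28.2% of all tested genes were), none lower and 4 not called. Their median log2 difference was 0.98. The largest changes were in Pdia3 (ERp57, 66.2 and 66.1 FPKM in resting, 194 and 262 in activated cells; log2 1.75, limma adjusted p = 0.00105) and Calr (calreticulin, 214 and 193 against 590 and 780; log2 1.73, limma adjusted p = 0.00164). Both are chaperones of the loading complex that also fold other glycoproteins. Ide and Lap3, peptidases of the cytosol, rose by 1.73 and 1.70 (limma adjusted p = 0.00226 and 0.000517). Erap1, which trims peptides in the endoplasmic reticulum, differed by 0.38 (limma adjusted p = 0.0643).

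Among nonclassical and class I-like genes, 8 of 18 tested fell (26.2% of all tested genes did), none rose and 10 were not called. Their median log2 difference was -0.58. Fcgrt, the neonatal Fc receptor heavy chain, had 22.5 and 26.3 FPKM in resting and 0.202 and 0.126 in activated samples (log2 -4.45, limma adjusted p = 2.53e-05). Hfe, which regulates iron uptake, and Cd1d1, which presents lipids, had log2 differences of -3.47 and -2.18 (limma adjusted p = 4.51e-05 and 0.000177). Macrophages are known to express Fcgrt and Hfe. In this comparison any gene lower in activated cells moves with the macrophage sums given above, and the part of macrophages in these falls was not tested. The other 5 were H2-M2 (-1.93), H2-K2 (-1.39, a transcribed pseudogene in RefSeq), Cd1d2 (-1.05), H2-Q2 (-0.70) and H2-M3 (-0.58). H2-T23, which encodes Qa-1, had 129 and 115 FPKM in resting and 160 and 77.6 in activated samples, which overlap. H2-L, whose locus overlaps H2-D1, and H2-Q6, whose locus overlaps H2-Q8, were listed near 0. How reads of near-identical class I genes were assigned was not tested, and the values of H2-K1, H2-D1 and the H2-Q genes are uncertain for that reason.

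Among 18 regulators of class I genes, 4 fell, 1 rose and 13 were not called. Of all tested genes 26.2% were called lower and 28.2% higher, so the regulators did not exceed the background share. Irf1, an interferon-induced activator of class I and immunosubunit promoters, had 67.3 and 70.4 FPKM in resting and 34.5 and 25.8 in activated samples (log2 -1.18, limma adjusted p = 0.00308). Ciita, the class II counterpart of Nlrc5, fell by 1.75 (limma adjusted p = 0.00059). Creb1 and Rela fell by 0.54 and 0.47, and Atf1 rose by 0.55 (limma adjusted p = 0.0282, 0.0393 and 0.0169). Of the interferon receptors and kinases 5 of 7 fell, led by Ifngr1 with 60.2 and 70.4 FPKM in resting and 16.7 and 12.8 in activated samples (log2 -2.08, limma adjusted p = 0.000285). All 8 MHC class II genes tested fell, with a median of -1.79, where the class I members had a median of 0.28. The difference between these lists was not tested.

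**Figure D3:**
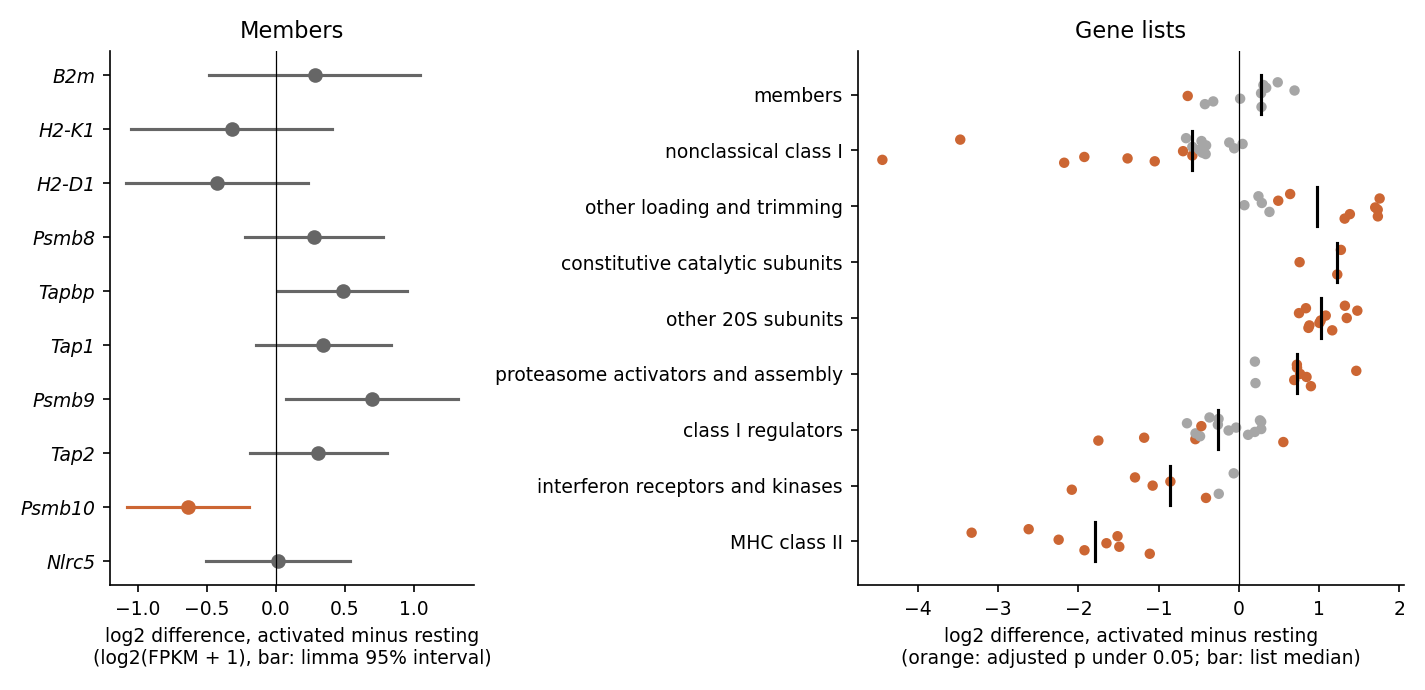
Left, log2 difference of log2(FPKM + 1), activated minus resting, of each member with limma's 95% interval; right, the same difference for every tested gene of the members and of 8 other lists, with calls in orange and list medians as bars. Psmb10 is the single call among the members, the 3 constitutive and 11 other 20S subunits all lie above 0, and the 8 class II genes all lie below.

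In activated cells, open chromatin and active histone marks were then read at each locus, extended by 1 kb on each side. The lists give intervals with no score and no replicate, and coordinates are on mm9. FAIRE-seq, which recovers nucleosome-poor DNA, had an interval at all 10 members (92.5% of tested genes had one). H3K27ac, which marks active regulatory DNA, and H3K4me3, a promoter mark, were each found at 9 members (89.0% and 90.6% of tested genes). Super-enhancers were at none (0.46% of tested genes). Among the 1444 tested genes with a mean of at least 50 FPKM in either group the shares were 96.0% for FAIRE, 94.2% for H3K27ac and 93.6% for H3K4me3. The members' shares are near these, so the presence of marks does not set the members apart.

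Nlrc5 was the member with neither histone mark at its deposited locus. That locus, chr8:96996662-97051172, held FAIRE intervals only. The nearest H3K4me3 interval lay 5.36 kb away on the upper-numbered side and the nearest H3K27ac interval 12.8 kb away on the lower-numbered side. The deposited locus spans 54.5 kb, while the RefSeq gene of GRCm38.p6 spans 92938 bases. A start and marks outside the deposited locus would therefore be missed. Whether these nearest intervals lie within the RefSeq gene was not tested. At B2m, chr2:121973422-121978818, the H3K4me3 interval was 5944 bases wide, wider than 99.3% of the list, and the H3K27ac interval was 3937 bases wide, wider than 95.5%. Psmb10, chr8:108459627-108462292, had the narrowest H3K4me3 interval of the members, 1797 bases. Its FAIRE intervals, chr8:108460759-108461059 and chr8:108461915-108462215, lay inside the locus, short of the upper-numbered end where this minus-strand gene starts. Whether they reach the Psmb10 window printed above, which is on another build, was not tested. One H3K4me3 and 1 H3K27ac interval, of 4044 and 3900 bases, covered the shared start of Tap1 and Psmb9.

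STARR-seq tests DNA fragments in a reporter plasmid, here taken from FAIRE DNA, for the power to drive their own transcription. STARR-seq samples are labelled 12 and 24 hours, and the single interval list names no time. The list had an interval at 6 members (60.8% of tested genes had one, and 70.1% of those with at least 50 FPKM): H2-K1, H2-D1, B2m, Tap1, Tapbp and Psmb9. At H2-K1 (chr17:34137128-34137428), H2-D1 (chr17:35399810-35400110) and B2m (chr2:121973165-121973465) the interval lay across the 5′ end of the gene. These are the genes whose promoters, printed above, hold the X2 and Y cores with a gap of 20 bases. The interval at chr17:34324239-34324539 covers the divergent start of Tap1 and Psmb9 and counts for both. Tapbp had an interval across its start (chr17:34056361-34056661) and another inside the gene (chr17:34057487-34057787). None lay at the deposited loci of Tap2, Psmb8, Psmb10 or Nlrc5, whose nearest was 16.9, 10.6, 4.73 and 38.3 kb away. For Nlrc5 the nearest was chr8:96958083-96958382, on the lower-numbered side. Whether it lies within the longer RefSeq gene of Nlrc5 was not tested, so STARR activity at the start of Nlrc5 is undetermined. All 6 distinct STARR intervals overlapped FAIRE; of 21 distinct FAIRE intervals at the members 6 held STARR activity, against 21.5% of all FAIRE intervals. Of the same 21, 16 lay in H3K27ac and 16 in H3K4me3, against 49.4% and 39.3% of all FAIRE intervals. The 21 were picked at gene loci, while the full FAIRE list is not limited to loci. Its shares are therefore not a like-for-like comparison, and those of FAIRE intervals at other tested genes were not counted.

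**Figure D4:**
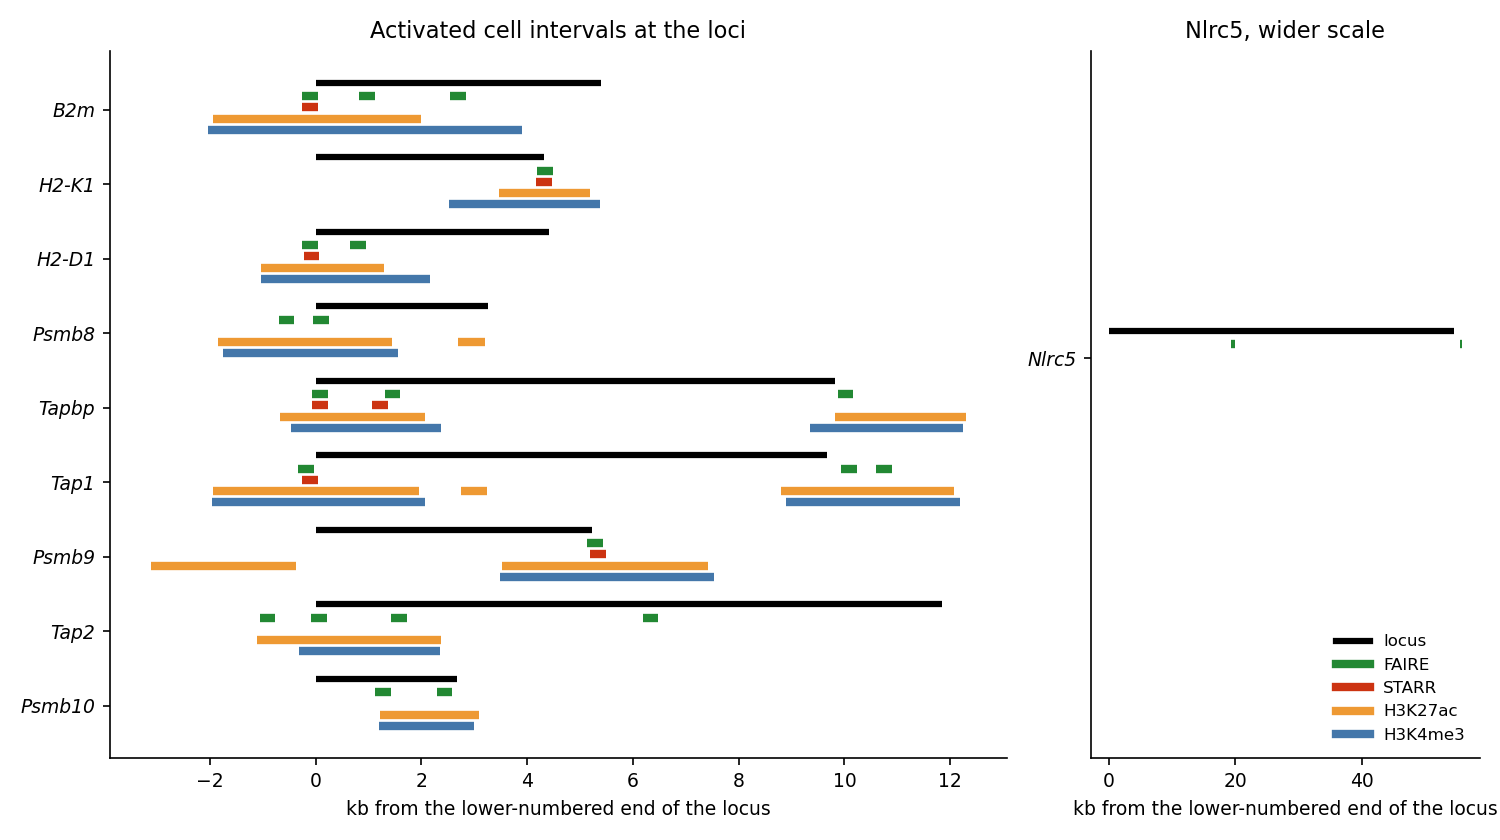
Intervals of activated cells at each locus in kb from its lower-numbered end, with the locus in black and FAIRE, STARR, H3K27ac and H3K4me3 below it; Nlrc5 has its own scale. STARR intervals sit at a gene end in 6 loci, and Nlrc5 has FAIRE intervals only at its deposited locus, which is shorter than the RefSeq gene.

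Hi-C records pairs of genome regions in contact. The deposited list holds 27903 distinct contacts with read counts pooled over replicates, and it was reduced by the authors to contacts of enhancers with promoters. A partner with STARR activity is therefore a matter of that selection. Contacts are listed at window widths of 500 to 5000 bases, so nearby contacts can share reads and are not independent. All 10 members had at least 1 contact (81.0% of tested genes did): Tapbp 39, Tap1 23, Tap2 18, Psmb8 16, H2-D1 15, H2-K1 11, Psmb9 10, B2m 6, Psmb10 2 and Nlrc5 1. The 7 members on chromosome 17 all had at least 10, which 17.0% of tested genes did. The counts and their order move with the window: with no extension of the locus Tap1 had 11, below Tap2 (17), Psmb8 (14) and H2-D1 (12), and H2-K1 and Psmb9 had 8 and 9. With an extension of 10 kb Tapbp had 69, Tap1 42, Psmb8 36, Tap2 32, H2-D1 26, Psmb9 21 and Psmb10 5. High counts were common in the region: of 64 other tested genes between Tapbp and H2-D1, a span of 1348 kb, 75.0% had at least 10, with a median of 15 contacts, against 4 over all tested genes. B2m, Psmb10 and Nlrc5, outside that region, had contacts of at most 9 reads.

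Several members reached the same partner. The STARR interval chr17:34371956-34372256, 3593 bases from H2-Ob and within an H3K27ac but no H3K4me3 interval, lay in partner anchors of Tap1, Tap2, Psmb8, Psmb9 and H2-K1. The strongest of these contacts was with Tap2, at 78 reads over 29.9 kb (95% exact Poisson interval 61.7 to 97.3, counting error only). The Tap1 and Psmb9 start contacted it with 68 reads over 47.6 kb, and the Tap1 end next to Psmb8 with 51 reads over 37.8 kb. A second interval, chr17:34308198-34308498, lay in partner anchors of Tap1, Tap2, Psmb8 and Psmb9, with up to 94 reads. These partners were singled out after their values were seen, and adjacent genes share anchors. A contact between distant members was listed once, from H2-K1 to the region of Tap1 and Psmb8 over 198 kb, with 5 reads (1.62 to 11.7).

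The contact with the most reads differed in reach among the other loci. Reads are raw counts, not adjusted for distance or window width. H2-K1 contacted a region 60.9 kb away that holds H2-Ke2 and Wdr46, with 51 reads. H2-D1 contacted a region 37.7 kb away with 89 reads, one 2.63 kb away with 68 and one 126 kb away at Bag6 with 58; a further contact of 248 reads had both anchors at the locus itself. Tapbp had 335 reads to a region at Daxx only 4.66 kb away, where the anchors overlap each other. The Tapbp-side anchor of that contact, chr17:34050706-34055706, met only the 1 kb extension and not the locus itself. A further Tapbp contact had 96 reads to a region at Rps18 and Vps52 over 32.8 kb. The contacts of B2m spanned 505 to 6800 kb with at most 7 reads each, Psmb10 had 9 and 7 reads at 230 and 252 kb, and Nlrc5 6 reads at 109 kb.

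**Figure D5:**
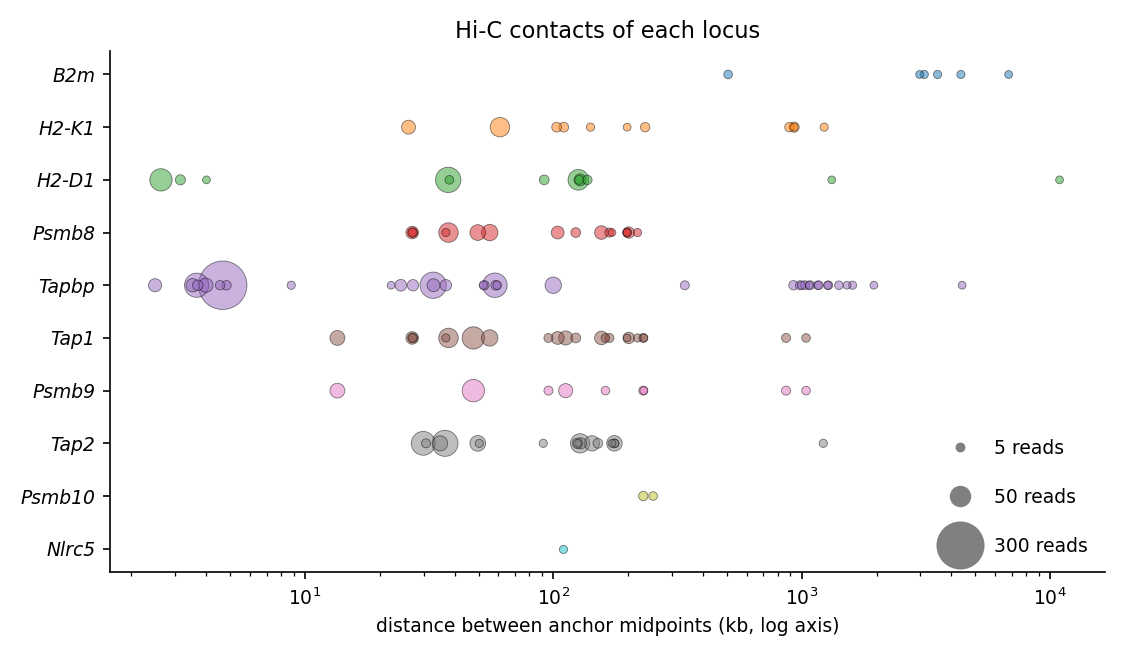
Distance between anchor midpoints (kb, log axis) of each Hi-C contact leaving a locus, with circle area rising with the read count. The chromosome 17 members have many contacts within 300 kb, and the largest, at 335 reads, met only the 1 kb extension of Tapbp. B2m, Psmb10 and Nlrc5 have few contacts of at most 9 reads.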

How the data were processed

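RNA-seq, FAIRE-seq, STARR-seq, ChIP-seq and Hi-C files of mouse splenic B cells were used, of 34 samples in the series. Not analysed here were the resting ChIP-seq, H3K4me1, plasmid library and nascent RNA samples. STAR, TopHat2, HOMER, bedtools, Bowtie and Bowtie2 are named, without role or version, per the submitters' processing notes, which give the build as mm9. The RNA values were deposited without a named unit and are treated as FPKM because they are not whole and their sums differ; depth and strand are not given. Hi-C contacts were deposited as a read count over pooled replicates with a z-score and a log p score, per the file headers, and the scores were not used. The deposited peak lists hold intervals only; starts were made 1-based.

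RNA was tested with limma 3.58.1 (R 4.3.3; trend and robust options, no block) on log2(FPKM + 1) over genes with at least 1 in at least 2 samples, with Benjamini-Hochberg adjustment over all of them; fold changes on this scale understate low genes. The fit was tested on simulated data. Peaks and anchors were counted with an overlap of at least 1 base with the locus extended by 1 kb. Sequences are from RefSeq. The members and the 15 other gene lists (138 of 140 symbols matched) were chosen with earlier results of these data known. Named are all members, the called genes with the largest change (up to 4 per list), nonclassical, constitutive and regulator genes, the 3 genes most like Nlrc5 and B2m, and up to 3 contacts per member by reads among those that leave its locus. The T cell, natural killer and dendritic cell markers gave 3 of 3, 2 of 2 and 5 of 6 tested genes lower in activated cells (1 dendritic gene higher), 5 of 6 B cell markers, 8 of 9 macrophage and 7 of 7 erythroid rows were lower, and no neutrophil marker was tested. Alternatives were other pseudocounts, filters, scalings, variance models, a replicate block, leaving out each sample, and other overlap rules.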

Additional observations from a re-analysis of the deposited data

How the results depend on the processing

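With 2 samples per group, single libraries decide the calls among the members. Psmb10 was the 1 member called lower; the number was 0 with no filter on low values (limma adjusted p = 0.0513, log2 -0.64; more genes were tested), and it ranged from 0 to 1 when each sample was left out. The number called higher, 0, was 1 under plain empirical Bayes (Tapbp, limma adjusted p = 0.0348) and ranged from 0 to 1 when each sample was left out. With the replicate number as a block it was also 1 (Psmb9, limma adjusted p = 0.0381); equal numbers share only a number, and the correlation of their deviations, 0.124, has 1 difference per group behind it. The block changed no other member's call. Leaving out each sample gave 1735 to 2859 genes called higher, against 3066, and 1191 to 2834 lower, against 2844. Among the genes called, 64.2% were higher without resting replicate 2 and 58.5% without resting replicate 1, against 51.9%; the cause was not tested.

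Nlrc5, never called, turned to -0.0449 under median scaling and -0.0633 under quantile normalization. Leaving out each sample gave it -0.263 (without activated replicate 1) to 0.294, and -0.114 without resting replicate 2. H2-K1, also never called, ranged from -0.662 to 0.0225, the latter without activated replicate 2. The log2 difference of Psmb9 to Psmb6, -0.0708, ranged from -0.576 to 0.434, the latter without activated replicate 2. The Psmb8 to Psmb5 and Psmb10 to Psmb7 differences kept their direction under every alternative run. The other uncalled members kept their sign under the alternatives run, but single libraries or quantile normalization moved each of them by over 1.5 times. Ranges were 0.00034 to 0.76 for B2m, -0.71 to -0.14 for H2-D1, 0.11 to 0.49 for Tap1 and 0.035 to 0.53 for Tap2. For Tapbp the range was 0.29 to 0.55, for Psmb8 0.15 to 0.36 and for Psmb9 0.36 to 1.03. Contact counts of H2-D1, Tap1, Tap2, Tapbp, Psmb8, Psmb9 and Psmb10 also moved by over 1.5 times with the extension of the locus. H2-K1 had 8 contacts with no extension and 11 otherwise, while B2m stayed at 6 and Nlrc5 at 1. Numbers of members with a peak or contact stayed within 1.5 times; with contacts above 7 reads, 8 members kept a contact (B2m and Nlrc5 had 0).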
